A study of Mus musculus with 6 samples.

Results

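The Zic genes encode transcription factors with C2H2 zinc fingers, and 4 of them, Zic1, Zic2, Zic4 and Zic5, were followed here through sorted retinal ganglion cells of the mouse. They are 4 of the 18193 genes that have a probe set of their own in the table, and were taken as every probe set that the platform annotation gives to a Zic gene and to no other. That rule found 8 of 34945 such probe sets, namely 2 for Zic1, 1 for Zic2, 2 for Zic4 and 3 for Zic5. RNA came from C57BL/6 retinas at postnatal day 6, dissociated with papain, sorted by flow cytometry and amplified in 2 rounds before hybridisation to Affymetrix arrays. The Hb9 group (2 arrays) holds cells positive for GFP and Thy1 that the labels call Hb9 ganglion cells. The Drd4 group (2 arrays) holds cells positive for GFP and Thy1 that the labels call Drd4 ganglion cells. The Thy1 group (2 arrays) holds cells positive for Thy1, a surface protein found on ganglion cells in general. Thy1 staining is therefore shared by all 3 groups, and GFP by Hb9 and Drd4. Both GFP lines are known to mark types of ON-OFF direction-selective ganglion cell; the labels give neither the construct nor its promoter. Per the series text, both arrays of each group are biological replicates of separate litters. The labels say which sort a sample is and not the purity it reached.

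Zic proteins are close relatives of the GLI factors of Hedgehog signalling and bind similar DNA sites. In vertebrate embryos they act in the neural tube, the cerebellum and the midline. In the mouse retina Zic2 is known for steering axons of ventrotemporal ganglion cells to the same side of the brain, in part through the receptor EphB1. The genes lie in divergent pairs. On GRCm38.p6, Zic1 spans chr9:91358058-91365768 on the minus strand and Zic4 spans chr9:91365631-91389351 on the plus strand, so the annotated spans share 138 bases. Zic5 spans chr14:122459160-122465658 on the minus strand, and Zic2, at chr14:122475384-122480328, starts beyond a gap of 9725 bases. The platform annotation gives no position of a probe set within a gene, so exonic or untranslated location is not stated.

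Promoter sequences are shown for 3 of the genes because no promoter was matched for Zic2. Of those shown, Zic1 and Zic5 had called differences between groups and Zic4 had none. Each runs from 250 bases before to 50 bases after the RefSeq start, 5′ to 3′ on the gene's strand. The capitals mark CCAAT boxes, sites known to bind the general factor NF-Y. Zic1 is chr9:91365719-91366018, Zic4 is chr9:91368722-91369021, whose start lies inside the annotated Zic4 span, and Zic5 is chr14:122465609-122465908.
Zic1: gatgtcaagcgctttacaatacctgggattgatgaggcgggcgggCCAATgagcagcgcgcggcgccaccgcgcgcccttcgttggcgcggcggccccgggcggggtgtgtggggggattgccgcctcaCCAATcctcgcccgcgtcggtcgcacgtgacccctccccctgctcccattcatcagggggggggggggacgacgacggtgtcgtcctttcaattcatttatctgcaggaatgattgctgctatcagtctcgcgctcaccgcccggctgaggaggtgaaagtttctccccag
Zic4: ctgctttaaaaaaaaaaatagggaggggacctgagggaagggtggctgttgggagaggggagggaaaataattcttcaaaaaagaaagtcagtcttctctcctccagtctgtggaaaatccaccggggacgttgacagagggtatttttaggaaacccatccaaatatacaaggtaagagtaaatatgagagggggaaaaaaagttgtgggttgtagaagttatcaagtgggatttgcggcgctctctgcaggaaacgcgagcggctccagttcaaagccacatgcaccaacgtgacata
Zic5: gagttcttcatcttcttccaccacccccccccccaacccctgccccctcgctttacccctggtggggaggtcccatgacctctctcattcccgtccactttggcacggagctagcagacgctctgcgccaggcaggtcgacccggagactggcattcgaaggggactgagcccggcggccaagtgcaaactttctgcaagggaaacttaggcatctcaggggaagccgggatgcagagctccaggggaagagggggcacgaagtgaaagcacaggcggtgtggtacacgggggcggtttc

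The Zic1 window held CCAAT 2 times, and 37.4% of 32851 promoter windows of the same length held it at least once on either strand. The other Zic windows held none. TATAAA, held by 13.6% of windows, was in 0 of the 3, as was CAGCAGG, a core known from Zic binding, held by 10.5%. TGGGTGGTC, a core known from GLI binding, was also in 0 of the 3, against 0.253% of all windows. The letters searched do not overlap one another. The Zic1 window was rich in CpG, with 31 CG dinucleotides and 65.3% G and C, whereas the median window had 7 and 52.7%. Zic5 had 15 CG dinucleotides and 62.7% G and C, and Zic4 had 8 and 46%.

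The deposited values are intensities per probe set on a linear scale, and array medians lay between 45.5 and 47.7. The background reference of an array was the brightest of its 27 probe sets for Bacillus subtilis control RNAs. It ran from 30.8 to 41.6 over the 6 arrays, and 58.8% to 71.8% of probe sets named to 1 gene lay above it. Added hybridisation controls read at least 167, so they were not used as background. Of 11 measured ganglion cell markers, 10 or 11 per array exceeded background, and their summed intensity ran from 28577 to 29061 in Hb9, from 26842 to 28605 in Drd4 and from 26605 to 27535 in Thy1. Such sums do not show changes of single genes, which are given with the other marker lists below. Starburst amacrine markers lay at background in 4 or 5 of 6 genes on each array. In sorted pools, fewer cells that express a gene and less RNA per cell cannot be told apart.

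Of the 8 Zic probe sets, 6 exceeded background on at least 1 array and 1, for Zic1, did so on all 6. Above background on both arrays of a group were 4 probe sets in Hb9, 1 in Drd4 and 4 in Thy1. The members thus fell into 3 kinds of profile. By group means, Zic1 was brightest in Thy1 cells, intermediate in Hb9 and dimmest in Drd4. Zic2 was brightest in Hb9, as was Zic5 except on 1425666_at, which stayed below background on every array. Zic4 was near background in all groups.

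**Figure D1:**
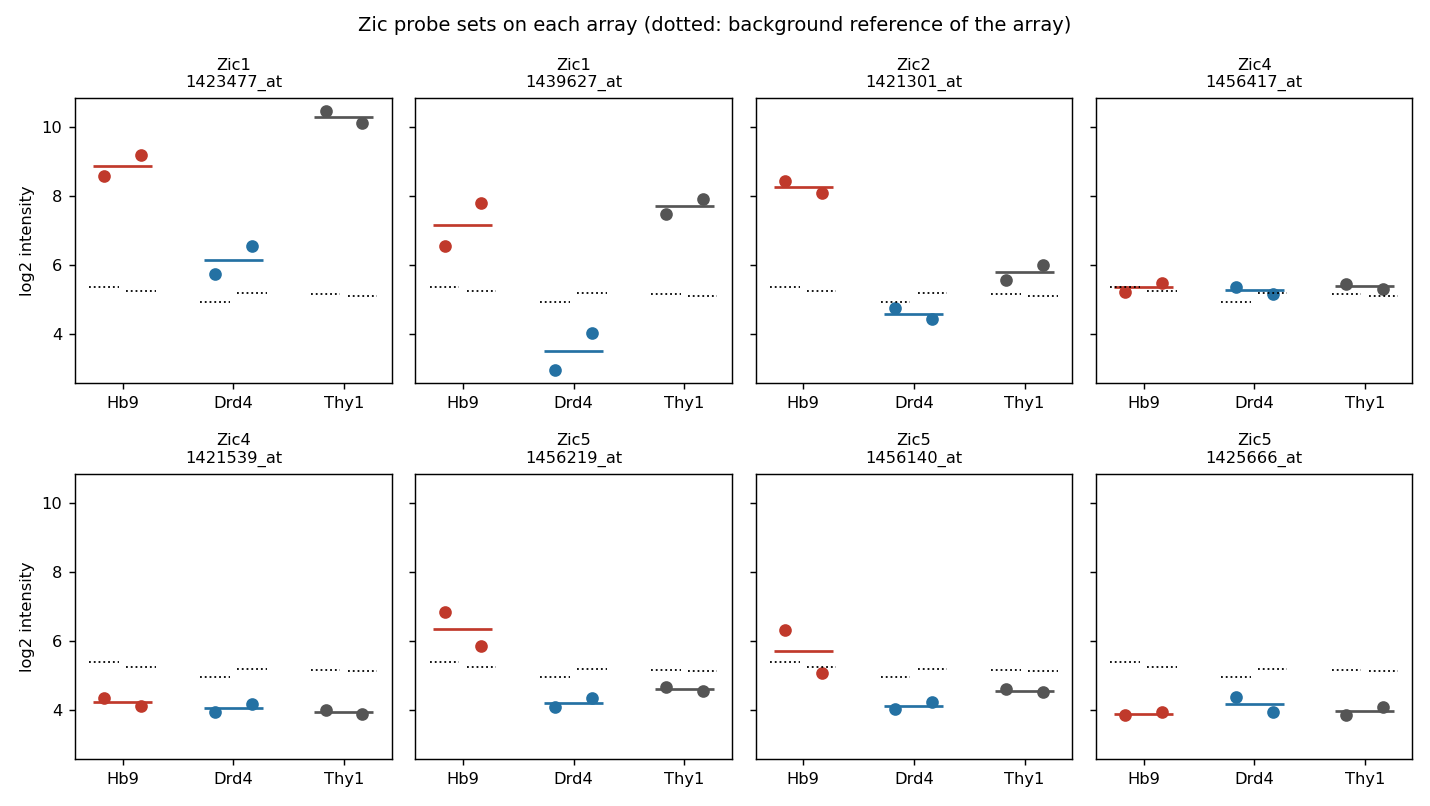
Log2 intensity of the 8 Zic probe sets on each array, by group; points are arrays, solid bars are means of 2 arrays and dotted lines are the background reference of each array. Zic1 was highest in Thy1 and lowest in Drd4, Zic2 and 2 Zic5 probe sets were highest in Hb9, and Zic4 lay at or near background throughout.

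Zic1 is known for its part in cerebellar growth and in keeping neural precursors from differentiating. Its brighter probe set, 1423477_at, read 386 and 579 in Hb9, 53.5 and 94.4 in Drd4, and 1417 and 1116 in Thy1. The 3 groups did not overlap. The Hb9 arrays were 9.28 and 15.2 times their background reference, and the Drd4 arrays 1.74 and 2.57 times theirs.

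The other Zic1 probe set, 1439627_at, read 94.0 and 223 in Hb9, 7.75 and 16.5 in Drd4, and 179 and 242 in Thy1. Both Drd4 arrays were below background, while the Hb9 arrays and the Thy1 arrays overlapped. The probe sets of Zic1 thus both put Drd4 lowest and differ on whether Hb9 is set apart from Thy1.

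Zic2 had 1 probe set, 1421301_at, which read 349 and 271 in Hb9, 26.9 and 21.5 in Drd4, and 47.7 and 64.7 in Thy1. Its Hb9 arrays were 8.39 and 7.09 times background, its Drd4 arrays were below it, and its Thy1 arrays were 1.34 and 1.87 times it. No group overlapped another.

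Zic5, the neighbour of Zic2 and a factor known from neural crest formation in frog and mouse, gave probe sets that disagreed. The brightest, 1456219_at, read 114 and 57.6 in Hb9, 16.9 and 20.2 in Drd4, and 25.4 and 23.3 in Thy1. Only the Hb9 arrays of that probe set exceeded background. Probe set 1456140_at read 80.2 and 33.7 in Hb9, 16.2 and 18.8 in Drd4, and 24.4 and 22.8 in Thy1. Here Hb9 replicate 1 alone exceeded background, and on both probe sets Hb9 replicate 1 read higher than replicate 2, with no overlap between groups. The last, 1425666_at, stayed below background on every array, between 14.4 and 20.8.

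Zic4, the neighbour of Zic1 and known with it from cerebellar development, was dim. Probe set 1456417_at ran from 36.0 to 44.6 over the 6 arrays and exceeded background on 1 Hb9 array, 1 Drd4 array and 2 Thy1 arrays. Probe set 1421539_at ran from 14.7 to 20.2 and was below background throughout. The brighter one read 37.6 and 44.6 in Hb9, 41.6 and 36.0 in Drd4, and 44.0 and 39.7 in Thy1, so all groups overlapped.

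The comparison of Hb9 with Thy1 asks how Zic levels in Hb9 cells stand against the general Thy1 sort. That sort also read higher for pericyte and microglial genes, as given below. Zic2 rose 5.53-fold and Zic1 fell 2.66-fold by its brighter probe set. In limma, with p-values adjusted by Benjamini-Hochberg over 34945 probe sets and a threshold of 0.05, 2 of 8 Zic probe sets rose and 1 fell, where 2.99% of all probe sets were higher and 4.13% were lower. On the log2 scale Zic2 averaged 8.26 ± 0.26 in Hb9 and 5.80 ± 0.31 in Thy1 (SD, n = 2 each), a difference of 2.47 ± 0.20 (standard error; adjusted p = 0.00017 in limma). Only 4 of the 34945 probe sets tested had a larger rise. The median log2 difference of the 8 was 0.13, and that of all tested 0.02. Zic5 1456219_at averaged 6.34 in Hb9 and 4.60 in Thy1, below background, and was at least 2.30-fold higher in Hb9 (adjusted p = 0.00372 in limma). An at-least fold sets the bright group's mean against the dim group's background reference, both on the log2 scale. Zic5 1456140_at, measured on 1 of 2 Hb9 arrays, did not pass (difference 1.14 ± 0.31, adjusted p = 0.0533 in limma).

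Zic1 1423477_at averaged 8.89 ± 0.41 in Hb9 and 10.30 ± 0.24 in Thy1 (SD, n = 2 each), a difference of -1.41 ± 0.27 (limma, adjusted p = 0.0132). When an array is left out, its group has 1 array, which is assumed to vary like the other groups. With Hb9 replicate 1 left out the call missed the threshold, at -1.12 (adjusted p = 0.118 in limma), and likewise with Thy1 replicate 1 left out, at -1.24 (adjusted p = 0.113 in limma). Zic1 1439627_at did not pass, at -0.52 ± 0.40 with a 95% interval from -1.42 to 0.37. The interval of Zic4 1456417_at ran from -0.37 to 0.31.

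Drd4 cells were set against the same 2 Thy1 arrays, so this comparison and the last share them. Zic1 fell 17.7-fold by its brighter probe set, and Zic2 was at least 1.65-fold lower. Of 8 Zic probe sets 3 fell and 0 rose in limma, also 0 at an unadjusted p under 0.05, where 1.32% of all probe sets were higher and 3.11% were lower. Zic1 1423477_at averaged 6.15 ± 0.58 in Drd4 and 10.30 ± 0.24 in Thy1 (SD, n = 2 each), a difference of -4.14 ± 0.27 (limma, adjusted p = 2.96e-05). Only 12 of 34945 probe sets had a lower difference. The median of the 8 was -0.41, and that of all tested 0.02. Zic1 1439627_at averaged 3.50 in Drd4, below background, and 7.70 in Thy1, and was at least 6.19-fold lower (adjusted p = 0.000213 in limma). Zic2 averaged 4.59 in Drd4, below background, and 5.80 in Thy1, with an adjusted p of 0.00619 in limma. Without Thy1 replicate 2 the Zic2 call was lost (adjusted p = 0.0573). For Zic5 both groups were at background, so no fold is given. Zic4 1456417_at differed by -0.11 with an interval from -0.45 to 0.23.

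The direct comparison of Hb9 with Drd4 tests the difference between the lines and uses no Thy1 array in its means. Zic1, Zic2 and, except on 1425666_at, Zic5 were higher in Hb9. Of 8 Zic probe sets 5 rose and 0 fell in limma, also 0 lower at an unadjusted p under 0.05, where 3.56% of all probe sets were higher and 3.65% were lower. The median log2 difference of the 8 was 1.85, and that of all probe sets tested 0.01. Several of these probe sets belong to the same gene, so these are not 8 separate observations. Zic2 averaged 8.26 ± 0.26 in Hb9 and 4.59 ± 0.23 in Drd4 (SD, n = 2 each), and was at least 9.15-fold higher (adjusted p = 1.27e-05 in limma). Zic1 1423477_at averaged 8.89 in Hb9 and 6.15 in Drd4, a difference of 2.73 ± 0.27 or 6.65-fold (adjusted p = 0.00025 in limma). Zic1 1439627_at was at least 4.30-fold higher (adjusted p = 0.00044 in limma), and its fitted difference of 3.68 became 4.30 without Hb9 replicate 1 and 3.06 without Hb9 replicate 2.

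Zic5 1456219_at was at least 2.41-fold higher in Hb9 than in Drd4 (adjusted p = 0.000791 in limma) and 1456140_at at least 1.55-fold higher (adjusted p = 0.012 in limma). The bound of 1456140_at rests on Hb9 replicate 1, since replicate 2 was below background, and the fitted difference of 1.58 became 0.95 without replicate 1 and 2.20 without replicate 2. Zic5 1425666_at and Zic4 1421539_at were at background in both lines. Zic4 1456417_at differed by 0.08, with an interval from -0.26 to 0.42. All 5 calls between Hb9 and Drd4 also passed in each alternative in which the probe set was tested; where an Hb9 or Drd4 array was left out, that rests on the spread of the other groups.

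**Figure D2:**
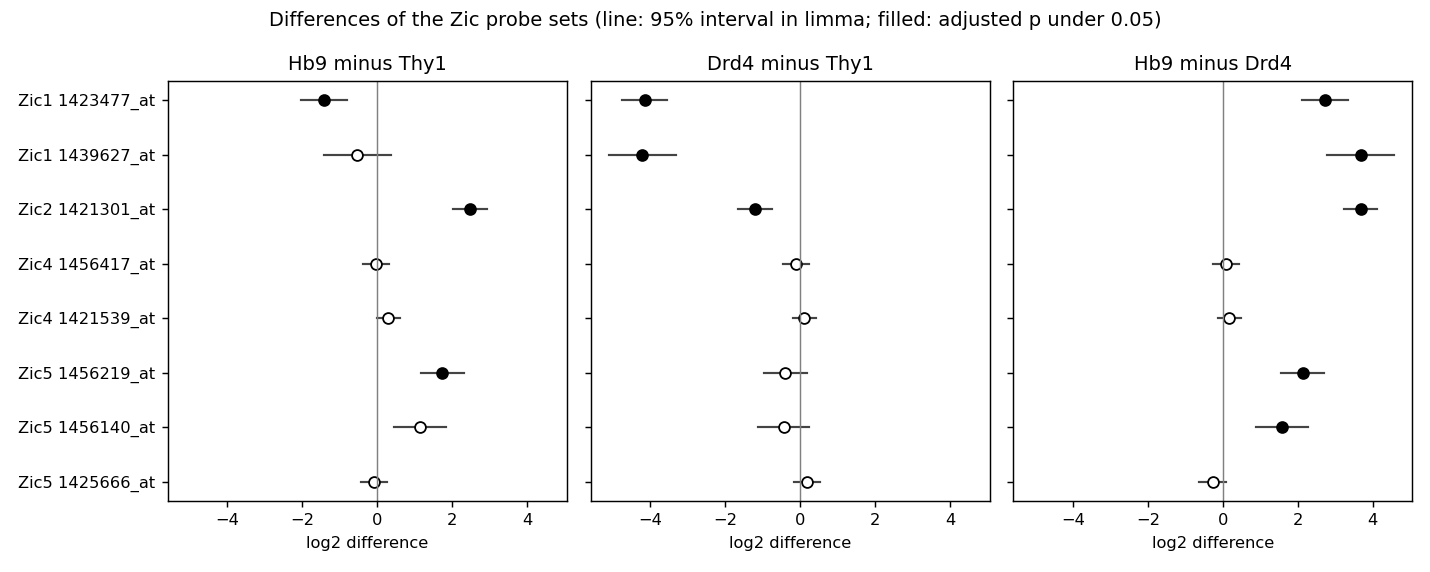
Log2 differences of the 8 Zic probe sets in 3 comparisons; points are estimates from limma, lines are 95% intervals and filled points passed at an adjusted p under 0.05. Zic2 lies at 2.47 for Hb9 minus Thy1 and Zic1 1423477_at at -4.14 for Drd4 minus Thy1, while the Zic4 lines cross 0 in each panel.

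Several lists of markers of other cells held genes lower in both GFP lines than in the Thy1 sort, as was Zic1 by its brighter probe set, and others did not. Of 10 pericyte genes 5 fell in Hb9 and 6 in Drd4, with median log2 differences of -2.04 and -2.07, and their summed intensity ran from 1627 to 1993 in Hb9, from 391 to 1244 in Drd4 and from 8134 to 9091 in Thy1. Zic1 is itself known from pericytes of the brain. Of 10 microglial genes 9 fell in each line, with sums of 930 to 1102 in Hb9, 685 to 1562 in Drd4 and 3827 to 7008 in Thy1. Of 10 genes of fibroblasts and meninges, 4 fell in Hb9 and 5 in Drd4, with sums of 273 to 296 in Hb9, 250 to 295 in Drd4 and 842 to 959 in Thy1. Of 9 genes of dividing cells, 4 fell in Hb9 and 6 in Drd4, and the Hb9 count was 1 without Hb9 replicate 2 and 2 without Thy1 replicate 2. At background were 3 or 4 pericyte genes per Hb9 array, 3 or 7 per Drd4 array and 2 per Thy1 array. The pericyte genes that passed in both lines were Pdgfrb, Kcnj8, Abcc9, Vtn and Notch3, and in Hb9 3 genes of the list passed without Hb9 replicate 1 or Thy1 replicate 1. Of 11 genes of Müller glia and progenitors, 3 fell in Hb9, and 2 fell and 1 rose in Drd4. Of 5 horizontal cell genes 1 fell in Hb9 and 2 in Drd4, and of 6 endothelial genes 1, Flt1, fell in each line. Of 4 astrocyte genes 0 fell in Hb9 and 1 in Drd4. Of 9 amacrine genes 0 fell and 1, Pax6, rose in each line, with sums of 4706 to 6042 in Hb9, 5788 to 6768 in Drd4 and 3854 to 5182 in Thy1. With quantile normalisation or without Thy1 replicate 1, no gene of that list passed in either line, and likewise in Hb9 without either Hb9 replicate and in Drd4 without Drd4 replicate 2. Of 6 starburst genes and of 7 rod and bipolar genes, 0 passed in either line, with 1 starburst gene higher in Hb9 and 1 rod and bipolar gene higher in Drd4 at an unadjusted p under 0.05 in limma. The part of these cells in the Zic1 difference from Thy1 was not tested. By the brightest probe set of each gene, 3.18% of genes were lower and 3.64% higher in Hb9 than in Thy1, and 3.73% lower and 1.41% higher in Drd4. Ganglion cell genes differed too: of 11, 1 (Nefm) rose in Hb9 and 0 fell. In Drd4 2 rose (Thy1 and Nefm) and 2 fell (Isl1 and Ebf1). These ganglion cell counts changed with some arrays left out.

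The same lists were compared between Hb9 and Drd4. Of 10 pericyte genes 0 passed in limma, with 3 higher and 1 lower at an unadjusted p under 0.05 and a median log2 difference of 0.03. Without Drd4 replicate 1, 3 pericyte genes were higher in Hb9 and passed, and without Drd4 replicate 2, 1 was. Rgs5 read 1423 and 1066 in Hb9 and 725 and 32.2 in Drd4 by its brightest probe set, and made up most of the pericyte sum on these arrays other than Drd4 replicate 2. A dimmer Rgs5 probe set was higher in Hb9 (1.90 ± 0.37, adjusted p = 0.012 in limma). Of 10 microglial genes 0 passed, with 1 lower at an unadjusted p under 0.05. Of 10 fibroblast and meningeal genes 0 passed, with 1 higher at an unadjusted p under 0.05. Of 9 genes of dividing cells 1, Birc5, was higher, a call lost without Hb9 replicate 1, Hb9 replicate 2 or Drd4 replicate 1, and 3 were higher at an unadjusted p under 0.05, with a median log2 difference of 0.43. Without Thy1 replicate 1 the list had 2 higher genes, and without Thy1 replicate 2 it had 3. Of 11 genes of Müller glia and progenitors, Rlbp1 was higher and Dkk3 lower, and no gene of that list was higher with any one array left out other than Drd4 replicate 2. Of 9 amacrine genes 0 passed, with 1 lower at an unadjusted p under 0.05. Among 11 ganglion cell genes, Isl1 was higher and Pou4f3 lower in Hb9. None of 5 horizontal, 4 astrocyte and 6 endothelial genes passed, with 2 horizontal genes and 1 astrocyte gene higher at an unadjusted p under 0.05. By the brightest probe set, 4.3% of all genes were higher and 2.12% lower. Within Drd4, replicate 1 had the larger pericyte sum (1244, against 391 in replicate 2) and the lower Zic1 intensity (53.5, against 94.4). With Drd4 replicate 1 left out, the Zic1 1423477_at difference was 2.33, and with Drd4 replicate 2 left out it was 3.14, both past the threshold. Any part of pericytes in the difference of Zic1 between the lines was not tested.

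**Figure D3:**
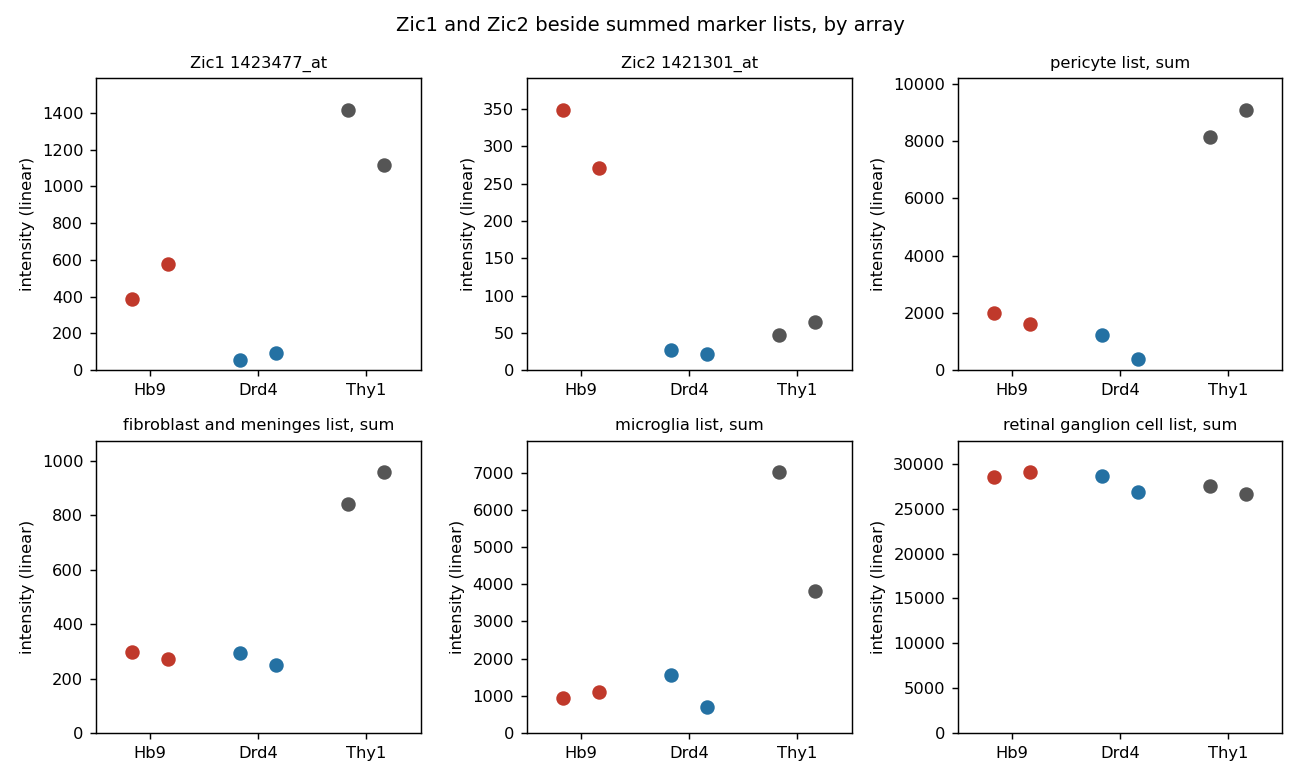
Linear intensity of Zic1 and Zic2 and summed intensity of 4 marker lists on each array, by group; each point is an array and every axis starts at 0. Zic1 and the pericyte, fibroblast and microglia sums were highest on the Thy1 arrays, Zic2 on the Hb9 arrays, and ganglion cell sums ran from 26605 to 29061.

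The GLI and GLIS factors are the nearest relatives of the Zic proteins. By the brightest probe set, 1 of 6 fell in Hb9 against Thy1 and 0 rose, also 0 at an unadjusted p under 0.05. In Drd4 against Thy1 0 of 6 passed, with 1 lower at an unadjusted p under 0.05, and so it was for Hb9 against Drd4. Over all genes 3.18% were lower and 3.64% higher in Hb9 than in Thy1, and 3.73% lower and 1.41% higher in Drd4. For Hb9 against Drd4 4.3% of all genes were higher and 2.12% lower. The gene that fell was Gli3, mainly known as a repressor of Hedgehog targets, which read 59.8 and 60.3 in Hb9, 92.1 and 71.5 in Drd4, and 108 and 103 in Thy1. Its Hb9 difference of -0.82 ± 0.16 (adjusted p = 0.0156 in limma) was lost without either Hb9 replicate (adjusted p = 0.106 and 0.0784) and without Thy1 replicate 1 (adjusted p = 0.105 in limma). A dimmer Gli3 probe set, 1455154_at, was below background in both lines and lower than in Thy1 by at least 1.24-fold in Hb9 (adjusted p = 0.00122 in limma) and at least 1.47-fold in Drd4 (adjusted p = 0.000426 in limma).

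Of 10 Hedgehog genes, 1 fell in Hb9 and 2 in Drd4 against Thy1, and 2 were higher in Hb9 than in Drd4. Over all genes 3.18% were lower in Hb9 and 3.73% in Drd4 than in Thy1, and 4.3% were higher in Hb9 than in Drd4. Each Hedgehog gene named here passed by its brightest probe set alone. Shh has 2 probe sets, and Smo, Ptch1 and Gas1 have 3 each, and the dimmer ones did not pass. Shh, the ligand that ganglion cells release, read 950 and 1013 in Hb9, 439 and 561 in Drd4, and 866 and 1094 in Thy1. Drd4 lay below the other groups, by -0.97 ± 0.17 against Thy1 (adjusted p = 0.00766 in limma), and Hb9 was higher than Drd4 by 0.98 ± 0.17 (adjusted p = 0.00618 in limma). Without Drd4 replicate 1 or Thy1 replicate 2 the Shh fall was lost (adjusted p = 0.0504 and 0.0619), and the difference between the lines was lost without Hb9 replicate 2 (adjusted p = 0.0514 in limma). Smo, the signal transducer, fell in Drd4 (-0.62 ± 0.14), and Ptch1, the receptor, was higher in Hb9 than in Drd4 (0.76 ± 0.20). Each of these 2 calls was lost without any one of the arrays it compares, and that of Ptch1 also with 1 probe set per gene (adjusted p = 0.0561). The Smo call stood in 10 of 18 alternatives, and was lost too with median centring (adjusted p = 0.0511), with the compared groups alone (adjusted p = 0.0584) and without either Hb9 replicate. Gas1, a coreceptor, fell in Hb9 against Thy1 (-0.98 ± 0.20), a call lost without Hb9 replicate 1 (adjusted p = 0.135) or Thy1 replicate 1 (adjusted p = 0.115 in limma).

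Among 7 factors of Wnt signalling taken as possible partners of Zic proteins, 1 fell in Hb9 against Thy1, and 2 fell and 1 rose in Drd4. Between Hb9 and Drd4 1 was higher and 1 lower. Over all genes 3.18% were lower in Hb9 than in Thy1, and 3.73% lower and 1.41% higher in Drd4. Between Hb9 and Drd4 4.3% of all genes were higher and 2.12% lower. Tcf7l2, a DNA-binding partner of beta-catenin, had the largest difference between the lines on this list. It read 117 and 156 in Hb9, 26.6 and 21.5 in Drd4, and 124 and 83.0 in Thy1. Tcf7l2 has 4 probe sets, and only 1429428_at, shown here, and a dimmer one given below passed in any comparison. On 1429428_at both Drd4 arrays were below background, and Hb9 and Thy1 overlapped. Tcf7l2 was at least 3.01-fold lower in Drd4 than in Thy1 (adjusted p = 0.000396 in limma) and at least 4.02-fold higher in Hb9 than in Drd4 (adjusted p = 0.000115 in limma). A dimmer Tcf7l2 probe set passed in the same directions, with fitted differences of -0.61 and 0.74, but was below background in all groups, and its Drd4 call against Thy1 was lost without Drd4 replicate 1 (adjusted p = 0.0914) or Thy1 replicate 1 (adjusted p = 0.173 in limma). Axin2, a feedback inhibitor and common target of the pathway, went the other way in Drd4, at 349 and 411 in Drd4 against 197 and 161 in Thy1 (1.09 ± 0.17, adjusted p = 0.00458 in limma). These are values of the brighter of 2 Axin2 probe sets, and the dimmer one did not pass. Hb9 was lower than Drd4 in Axin2 by -0.77 ± 0.17, a call lost without either Hb9 replicate or Drd4 replicate 2 (adjusted p from 0.0664 to 0.204 in limma). Mdfic, an I-mfa domain protein, was at least 1.86-fold lower in Hb9 (adjusted p = 0.00867) and at least 2.20-fold lower in Drd4 than in Thy1 (adjusted p = 0.00387 in limma), and without Hb9 replicate 1 the Hb9 call was lost (adjusted p = 0.0683).

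A further list holds genes of the choice that retinal axons make at the midline. Of 14 measured by their brightest probe set, 1 fell in Hb9 and 2 in Drd4 against Thy1, where 3.18% and 3.73% of all genes were lower. In both 0 rose, with 3 and 2 higher at an unadjusted p under 0.05 in limma. Between Hb9 and Drd4 4 were higher and 0 lower, with 2 lower at an unadjusted p under 0.05, where 4.3% of all genes were higher and 2.12% lower. That count of higher genes was 2 without Hb9 replicate 1 or Drd4 replicate 1. Ephb1, the receptor known to act downstream of Zic2 in uncrossed axons, read 299 and 326 in Hb9, 319 and 271 in Drd4, and 318 and 327 in Thy1. Its interval for Hb9 minus Thy1 ran from -0.39 to 0.30 and for Hb9 minus Drd4 from -0.26 to 0.43. Slc6a4, the serotonin transporter, also known from uncrossed ganglion cells, read 142 and 78.5 in Hb9, 39.0 and 48.4 in Drd4, and 47.7 and 65.6 in Thy1. It was higher in Hb9 than in Drd4 (1.28 ± 0.27, adjusted p = 0.0161 in limma), and the call was lost with Hb9 replicate 1 left out (adjusted p = 0.111) and Drd4 replicate 1 (adjusted p = 0.0765). Against Thy1 its difference of 0.92 ± 0.27 in Hb9 did not pass (adjusted p = 0.0671 in limma).

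Sema6d, a chiasm semaphorin, was the midline gene with the largest fall in Drd4. Of its 4 probe sets only the brightest, 1453055_at, passed in any comparison. That probe set read 318 and 325 in Hb9, 163 and 137 in Drd4, and 533 and 545 in Thy1, and no group overlapped another. Drd4 differed from Thy1 by -1.85 ± 0.15 (adjusted p = 9.94e-05 in limma), Hb9 from Drd4 by 1.10 ± 0.15 (adjusted p = 0.00177 in limma), and Hb9 from Thy1 by -0.75 ± 0.15 (adjusted p = 0.0173 in limma). The last of these was lost without any one of the arrays it compares (adjusted p from 0.0592 to 0.13). Of Efnb2, the ephrin of the chiasm, and Nrp1, a neuropilin, the brightest probe set did not pass and a dimmer one did, at 0.87 ± 0.18 for Drd4 minus Thy1 and -1.04 ± 0.17 for Hb9 minus Drd4. Efnb2 was lost without Drd4 replicate 1 (adjusted p = 0.157) or either Thy1 replicate (adjusted p = 0.0525 and 0.149), and Nrp1 without Hb9 replicate 1 (adjusted p = 0.0585 in limma). Isl2, known from crossed ganglion cells, was the remaining one of the 4 genes higher in Hb9 than in Drd4 (0.73 ± 0.16), a call lost without Hb9 replicate 1 (adjusted p = 0.172) or Drd4 replicate 1 (adjusted p = 0.0926 in limma). The 14 genes had median log2 differences of 0.10 for Hb9 minus Thy1, -0.05 for Drd4 minus Thy1 and 0.12 for Hb9 minus Drd4, where the medians over all 18193 genes were 0.04, 0.02 and 0.04.

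**Figure D4:**
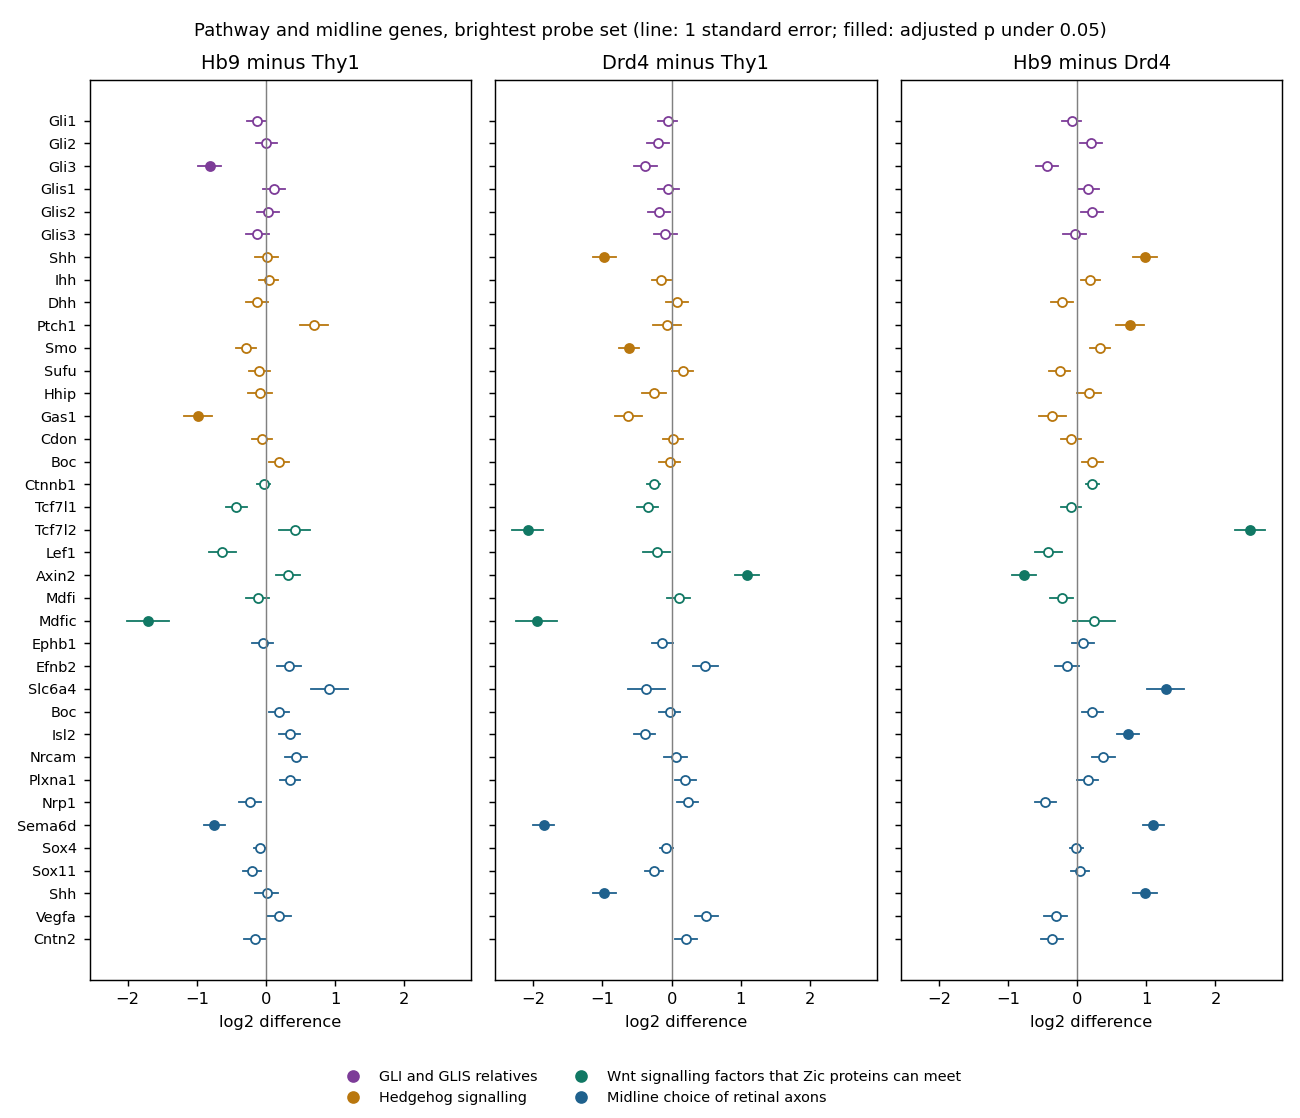
Log2 differences of GLI, Hedgehog, Wnt and midline genes by their brightest probe set; lines are 1 standard error from limma, filled points passed at an adjusted p under 0.05, and Boc and Shh stand in 2 lists. Tcf7l2, Mdfic and Sema6d stand out to the left for Drd4 minus Thy1, and Ephb1 lies near 0 in all panels.

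Genes whose log2 profile over the 6 arrays lay closest to each Zic gene were found by root mean square distance after centring each gene on its mean. The likeness is a description over 6 arrays of 3 groups, and many genes can look alike over so few. Nearest to Zic1 were the growth factor gene Igf1, the small heat shock protein gene Cryab, Sorcs1, the matrix gene Npnt and the receptor gene Calcrl, at distances of 0.59 to 0.76. Igf1 read 1570 and 1216 in Hb9, 161 and 146 in Drd4, and 2084 and 1447 in Thy1. Nearest to Zic2 were Cdh1 (E-cadherin), the neuropeptide gene Npy, the glypican gene Gpc6, Colec11 and the cofactor gene Eya1, at 0.27 to 0.57. Cdh1 read 260 and 185 in Hb9, 15.6 and 20.1 in Drd4, and 41.0 and 35.9 in Thy1. Nearest to Zic5 were the retinoic acid binding protein gene Crabp1, Eya1, the amino acid transporter gene Slc7a3, Colec11 and the contactin gene Cntn5, at 0.22 to 0.34. Eya1 and Colec11 thus stood among the nearest 5 of both Zic2 and Zic5. Zic4, which hardly varied, was nearest to other genes of little variation, namely Bmpr1a, Zfp280b, Trim40, Elovl5 and Klf1, at 0.03 to 0.04.

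**Figure D5:**
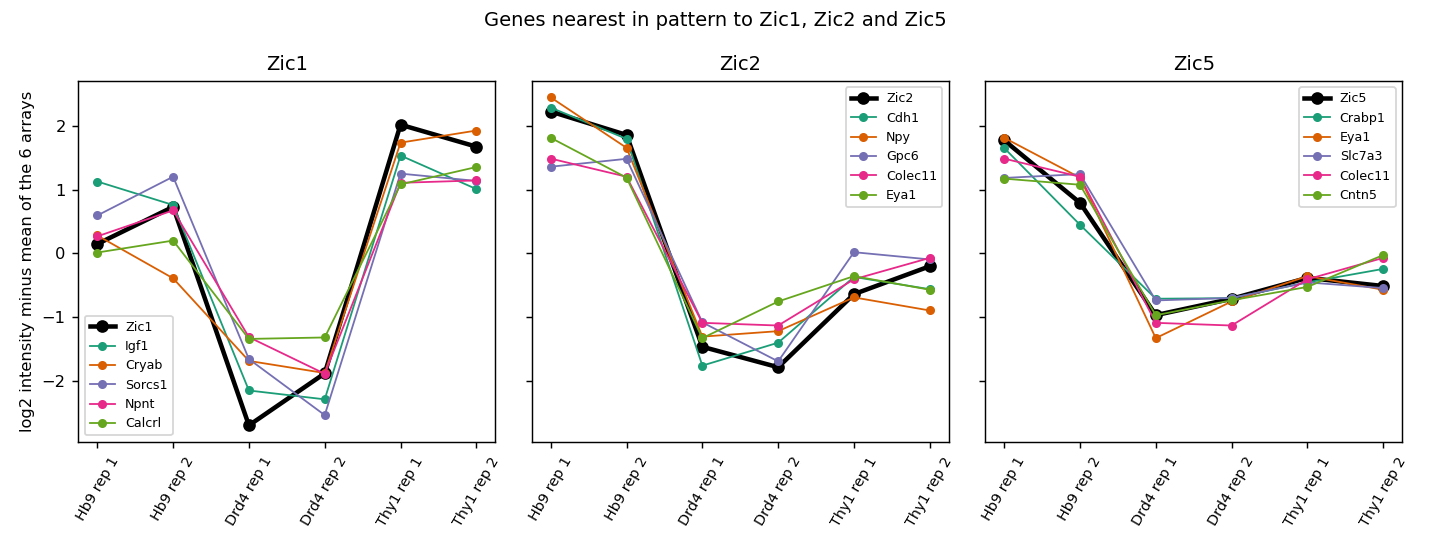
Centred log2 profiles of Zic1, Zic2 and Zic5 (black, brightest probe set) and of the 5 genes nearest to each, over the 6 arrays; lines only join the points of a gene. Zic1 and its neighbours were lowest in Drd4, with Igf1 nearest at a distance of 0.59, and those of Zic2 and Zic5 were highest in Hb9.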

How the data were processed

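Expression was measured on 6 arrays, 2 per group. The authors deposited intensities per probe set on a linear scale. Their background correction, summarisation and normalisation: not given in the sources used here. The table holds 45101 probe sets: 64 controls, 34945 named to 1 gene, 932 to several and 9160 to none. Names came from the platform annotation of the given table, and 34741 were matched to RefSeq genes by Entrez identifier, with 0 symbols changed. Promoters are RefSeq sequences of GRCm38.p6 (3 of 4 genes matched; Zic2 was not).

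Log2 values of the 34945 probe sets were fitted with limma 3.58.1 in R 4.3.3, with a mean per group, 3 residual and 7.22 prior degrees of freedom and an intensity trend. Tests were two-sided, with Benjamini-Hochberg adjustment per comparison and a threshold of 0.05. Precision is limited by having 2 arrays a group: the median standard error of a difference was 0.155. Standard errors and 95% intervals are limma's, and other errors are SD. The fit was checked on simulated data. Figures were drawn with matplotlib 3.10.9 in Python 3.11.15.

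The members and lists were chosen with earlier results of these data known. Named are all Zic probe sets, up to 3 called genes per pathway list and comparison, the 5 genes nearest in profile to each Zic gene, and the genes flanking each pair. Isl2 and the marker genes, named to spell out a count, and Rgs5 and Ephb1 were picked with values in view. Alternatives were other scalings, an offset of 16, other sets of probe sets, other moderation, array weights, the replicate number as a block, the compared groups alone and each array left out.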

Additional observations from a re-analysis of the deposited data

Results flagged for a closer look

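The lines differed from each other in their shift against the shared Thy1 arrays at 5 Zic probe sets, by the direct test of Hb9 against Drd4 in limma. The log2 differences, Hb9 minus Drd4, were 2.73 for Zic1 1423477_at, 3.68 for Zic1 1439627_at, 3.67 for Zic2 1421301_at, 2.13 for Zic5 1456219_at and 1.58 for Zic5 1456140_at. Zic2 moved in opposite directions, higher in Hb9 and lower in Drd4 than in Thy1. Zic1 1423477_at was lower than in Thy1 in both lines, and further so in Drd4. For all but Zic1 1423477_at the Drd4 arrays were below background, so these sizes are fitted values and not measured folds.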

How the results depend on the processing

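Of 24 Zic results, 1 per probe set and comparison, 394 values under the alternatives kept direction and side of the threshold, 3 lost a call, 7 gained one and 10 changed sign. The lost calls are those given above for Zic1 and Zic2. All 7 gained calls are Zic5 1456140_at, Hb9 against Thy1 (median centring, both replicate blocks, the compared groups alone, and without Hb9 replicate 2 or either Drd4 replicate). No call changed sign. Among uncalled values, Zic4 1456417_at for Hb9 minus Thy1 was 0.020 with quantile normalisation and 0.013 with median centring. With arrays left out it ran from -0.15 to 0.095, and for Hb9 minus Drd4 from -0.041 to 0.20. Left-out ranges that crossed 0 were also those of Zic1 1439627_at (-1.15 to 0.097) and Zic5 1425666_at (-0.20 to 0.027) for Hb9 minus Thy1, and of Zic4 1421539_at (-0.012 to 0.24) and Zic5 1425666_at (-0.040 to 0.40) for Drd4 minus Thy1.

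Counts over all probe sets moved more. With 1 probe set per gene 1220 were called for Hb9 minus Thy1, 995 for Drd4 minus Thy1 and 1113 for Hb9 minus Drd4, and the Zic count for Hb9 minus Drd4 was 3; fewer probe sets enter that fit. For Hb9 minus Thy1 the split of 1045 higher and 1442 lower became 1417 and 1335 with median centring and 640 and 580 with 1 probe set per gene. Higher calls numbered 169 and 284 with Hb9 replicate 1 or 2 left out in turn, and 201 with Thy1 replicate 1 left out. With an array left out the counts ran from 746 to 3012 for Hb9 minus Thy1 and from 1011 to 2623 for Hb9 minus Drd4. The labels tie no replicate number to a litter, and the replicate differences of the groups correlated at -0.23 (Hb9 and Drd4), -0.16 (Hb9 and Thy1) and 0.33 (Drd4 and Thy1). With the replicate block the Zic counts were 4 for Hb9 minus Thy1, 3 for Drd4 minus Thy1 and 5 for Hb9 minus Drd4. A block with the Hb9 numbers crossed, chosen after seeing the data, gave 5451, 2483 and 4953 calls over all probe sets, in the same order. Nearest genes by Pearson correlation shared 0 of 5 with the list of Zic1 and of Zic5, 1 of 5 for Zic2 and 3 of 5 for Zic4. Against the median bacterial control no group was below background on both arrays where a fold bound is given, so that setting gave no bounds. Signal near background limits what Zic4 and Zic5 1425666_at can show.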

Other observations

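The nearest protein-coding genes that flank the Zic pairs on their chromosomes, where analysed, did not pass in any of the 3 comparisons in limma. Beside Zic2 and Zic5 on chromosome 14 lie Clybl, a mitochondrial lyase gene, and Pcca, the alpha subunit of propionyl-CoA carboxylase. Pcca 1451405_at read 169 and 158 in Hb9, 141 and 152 in Drd4, and 138 and 149 in Thy1, so its largest difference, Hb9 minus Thy1, was 0.19 ± 0.15 (adjusted p = 0.527 in limma). Clybl read 43.7 and 43.6 in Hb9, 36.2 and 46.7 in Drd4, and 42.4 and 38.3 in Thy1. The nearest protein-coding gene on the Zic1 side of chromosome 9 is Tbc1d2b, a gene of a Rab GTPase-activating protein. Tbc1d2b is not close by: it ends at chr9:90270772, and the Zic1 span begins at chr9:91358058. Tbc1d2b read 23.6 and 29.0 in Hb9, 24.5 and 28.7 in Drd4, and 37.1 and 37.7 in Thy1. It was below background in both lines, so no exact difference from Thy1 is given (adjusted p = 0.0704 for Hb9 and 0.126 for Drd4 in limma). Plscr5, on the other side of Zic4, was not analysed here.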
